A study of Mus musculus with 4 samples.

Results

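The 48 genes described here build and dismantle mitotic chromosomes: the condensin and cohesin complexes with their regulators, the kinases and phosphatases of mitotic entry, the ubiquitin ligase that starts anaphase with its partners, and the proteins that divide the cell. They were taken by name from a list of members, and all 48 were found among the 55487 gene identifiers of each deposited table. All 48 were also among the 15596 genes that averaged 1 CPM or more over the 4 libraries, CPM being counts per library total after TMM scaling, a correction for library composition. RNA was sequenced from primary cultured mouse astrocytes, the star-shaped glia of the brain, in 4 libraries: OASIS deficient with doxorubicin, OASIS deficient untreated, OASIS wild type with doxorubicin and OASIS wild type untreated, 1 library each. The gene of OASIS is Creb3l1, and the protein is a transcription factor anchored in the endoplasmic reticulum. Doxorubicin causes DNA breaks by trapping topoisomerase II, and was given at 1 µg/ml for 1 h on day 5 after confluence, and RNA was taken 24 h later. The series compares deficient with wild-type astrocytes with and without this DNA damage. Neither the allele, the age of the animals nor the number of animals behind a culture is given in the sources used here.

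Total counts ran from 17481188 to 22559613 per library. Each group is 1 library, so ratios of single libraries have no replicate error and are given without p-values. Their intervals are exact conditional binomial 95% intervals of the ratio of counts and cover at most counting error, because no group has a replicate. Reads lack molecular identifiers, so copies of 1 molecule cannot be told from separate molecules. The intervals may therefore be too narrow even for counting error. Creb3l1 itself had 11.9 CPM with doxorubicin and 15.1 CPM untreated in deficient libraries, against 27.8 CPM with doxorubicin and 48.5 CPM untreated in wild type, so its RNA was lower in both deficient libraries but present, and the part of the gene that was altered is not given in the sources used here. All 10 astrocyte markers examined had counts in all 4 libraries. Xist, the RNA of the inactive X chromosome, had 2742 counts with doxorubicin and 0 counts untreated in deficient libraries, against 2547 counts with doxorubicin and 1 counts untreated in wild type, and 4 Y-linked genes were at 0 counts in both doxorubicin libraries and had 353 to 1567 counts in both untreated ones. Doxorubicin and the sex of the cultures therefore cannot be told apart in any comparison by treatment. Whether cultures of different sex were used or sample labels were exchanged was not tested, so every group is named here by its label.

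Condensin folds chromatin into compact loops for mitosis and comes in 2 forms that share the ATPases Smc2 and Smc4 and differ in the subunits named below. Cohesin holds sister DNA molecules together from replication until separase cuts it, and separase is freed when the anaphase-promoting complex, a ubiquitin ligase activated first by Cdc20 and later by the Fzr1 product CDH1, marks securin for destruction. Cytokinesis then follows from the midzone of the spindle. Much of this machinery is transcribed only in late G2 and mitosis of dividing cells, while cohesin and the core of the ubiquitin ligase also work outside mitosis.

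Most of these genes had far more RNA in the deficient cultures, and the exceptions lay mainly in cohesin, its regulators and the ubiquitin ligase with its partners. In deficient over wild type with doxorubicin, 32 of 48 were at least 2-fold higher (log2 ratio of CPM + 1 of at least 1), where 10.7% of all genes were, and 0 of 48 were at least 2-fold lower, where 9.55% of all genes were. Untreated, 30 of 48 were higher and 0 lower, against 9.79% and 10.2% of all genes. The median log2 ratio of the 48 was 2.69 with doxorubicin (range -0.50 to 6.14) and 2.10 untreated (range -0.65 to 5.78), beside all-gene medians of 0.02 and -0.03. Their summed level was 3769 CPM with doxorubicin and 2874 CPM untreated in deficient libraries, against 1341 CPM with doxorubicin and 1263 CPM untreated in wild type. In bulk RNA, fewer cells with a transcript and less of it per cell cannot be told apart.

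An additive model of genotype and treatment over all 4 libraries, fitted to all 15596 genes with edgeR's quasi-likelihood test, gave the test of genotype that the design allows, with 1 residual degree of freedom. At a Benjamini-Hochberg adjusted p of at most 0.05 over all genes, 36 of 48 rose in deficient and 1, Ckap2, fell, where 12.9% of all genes rose and 10.9% fell. With 1 library per group, that degree of freedom is the difference between the 2 treatment responses, combined with dispersion pooled over all genes. The test therefore assumes the same genotype difference under both treatments, and its error is not scatter between replicates. Nothing in the labels ties the libraries to separate animals, so these p-values may not cover variation between animals. The 11 genes that did not pass were Wapl, Pttg1, Smc1a, Fzr1, Anapc1, Anapc4, Stag1, Stag2, Pds5a, Pds5b and Esco1. Without treatment in the model 34 rose and 0 fell, with Ncaph2, Smc3 and Ckap2 no longer passing (adjusted p 0.0647 to 0.188 by edgeR). An additive model of 3 libraries has no residual degree of freedom, so each library was left out of that model without treatment. There 1 genotype is a lone library, assumed to vary like the others, and these values change by 2 choices at once. Without the deficient library with doxorubicin 25 rose, and besides Ncaph2 and Smc3 the genes that no longer passed were Nek2, Cdc25b, Ube2s, Ncapd3, Cdc27, Ncapg2, Bora, Rad21 and Espl1 (adjusted p 0.0551 to 0.284 by edgeR). Without the untreated deficient library 32 rose, and besides Ncaph2 and Smc3 Cdc25b and Cdc27 did not pass (adjusted p 0.0739 and 0.0609 by edgeR). Without the wild-type library with doxorubicin Smc3 did not pass (0.0872) while Smc1a rose (0.0230) and Wapl fell (0.0492), and without the untreated wild-type library Ncaph2 did not pass (0.491), all by edgeR.

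**Figure D1:**
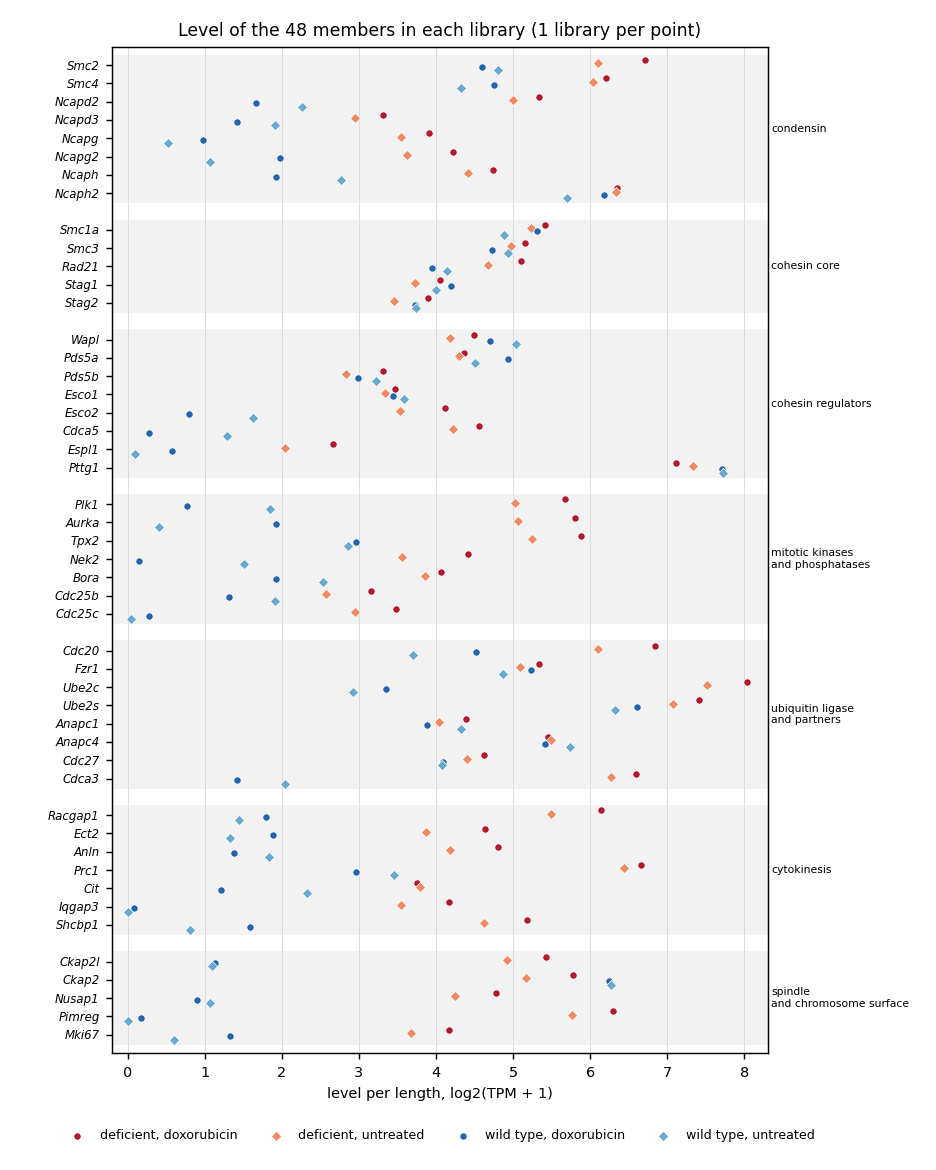
Level of each of the 48 genes in each library as log2(TPM + 1), 1 point per library, grouped by role. In deficient libraries (red circles with doxorubicin, orange diamonds untreated) every gene was at 3.10 TPM or more, while in wild type (dark blue circles with doxorubicin, light blue diamonds untreated) the median was 2.86 TPM with doxorubicin and 5.29 TPM untreated.

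On the scale of TPM, which divides by transcript length and allows genes to be compared, the median of the 48 was 26.6 TPM with doxorubicin and 20.2 TPM untreated in deficient libraries, against 2.86 TPM with doxorubicin and 5.29 TPM untreated in wild type. The most abundant was Ube2c, the ubiquitin-conjugating enzyme of the anaphase-promoting complex, in both deficient libraries (262 TPM with doxorubicin and 182 TPM untreated). In both wild-type libraries it was Pttg1, which encodes securin (209 TPM with doxorubicin and 211 TPM untreated). The order of the levels thus differed by genotype, as the plot of levels by library shows. Low counts limited the wild-type values, although each wild-type library had a larger total than its deficient partner. In wild type 16 of the 48 had under 100 counts with doxorubicin and 21 untreated. Iqgap3 and Pimreg had 0 counts in untreated wild type, where the 3 counts that a count of 0 allows correspond to 0.151 CPM.

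The promoters of several of these genes are shown here because of a short element. It was found in 19 of the 28 genes with a window that rose and in 2 of the 10 that did not. Of all genes with a window, 20.2% held it. The genes shown are picked examples. The cell cycle homology region (CHR, TTTGAA) is bound in mammals by the DREAM and MuvB complexes, which repress G2 and M phase genes in resting cells and activate them in dividing ones, and it often lies downstream of CCAAT boxes bound by NF-Y. Sequences of GRCm38.p6 are from RefSeq, 5′ to 3′ on the strand of the gene, from 110 bases before the annotated start to 20 after it, with CHR and CCAAT matches on either strand in capitals (the reverse spellings are TTCAAA and ATTGG). Ube2c (chr2:164769819-164769948, plus strand), Cdc20 (chr4:118437324-118437453, minus strand), Racgap1 (chr15:99651637-99651766, minus strand) and Prc1 (chr7:80294341-80294470, plus strand) rose in deficient. Ckap2 (chr8:22185800-22185929, minus strand), the gene that fell, is given for contrast.
Ube2c: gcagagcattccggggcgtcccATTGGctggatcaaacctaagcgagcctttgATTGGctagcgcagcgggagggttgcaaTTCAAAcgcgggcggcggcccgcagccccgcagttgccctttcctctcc
Cdc20: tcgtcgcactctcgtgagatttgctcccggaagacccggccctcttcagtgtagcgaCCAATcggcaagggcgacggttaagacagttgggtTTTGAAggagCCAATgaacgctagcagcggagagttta
Racgap1: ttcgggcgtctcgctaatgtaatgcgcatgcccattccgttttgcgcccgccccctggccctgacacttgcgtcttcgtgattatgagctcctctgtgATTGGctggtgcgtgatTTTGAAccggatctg
Prc1: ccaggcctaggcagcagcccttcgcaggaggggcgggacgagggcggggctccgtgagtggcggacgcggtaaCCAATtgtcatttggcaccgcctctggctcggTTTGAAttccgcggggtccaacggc
Ckap2: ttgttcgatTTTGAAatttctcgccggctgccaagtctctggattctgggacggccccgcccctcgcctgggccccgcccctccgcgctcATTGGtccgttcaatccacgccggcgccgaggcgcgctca

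In the first 4 of these stretches a CHR lay close to the start, at -29 to -24 in Ube2c (on the reverse strand), at -18 to -13 in Cdc20, at 6 to 11 in Racgap1 and at -5 to 1 in Prc1, counted from 1 at the first transcribed base with no base 0. The nearest upstream CCAAT box ended 23 bases before it in Ube2c, 30 in Cdc20, 12 in Racgap1 and 27 in Prc1. Over all matched genes with a CCAAT box upstream of a CHR, this gap ran from 5 bases in Ckap2l to 141 in Ncapg. Ckap2 has its CHR at -101 to -96, upstream of a CCAAT box at -20 to -16.

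Over windows of 300 bases (250 before the start to 50 after it), 38 of the 48 genes were matched by symbol. A CHR on either strand was present in 21 of these 38 (55.3%) and in 20.2% of all 27025 genes with a window. A CCAAT box was present in 60.5% of the 38 and in 41.1% of all genes, both elements together in 42.1% and 8.97%, and an E2F site (TTTGGCGC, TTTCCCGC, TTTCGCGC or TTTGCCGC) in 15.8% and 2.60%. Matches of different motifs that overlap were each counted. From 50 bases before the start to 50 after it, a CHR was found in 46.3% of the 41 windows of these genes and in 4.94% of all 32851 windows. Among the 38 matched genes, the 21 with a CHR had a median log2 ratio of 3.50 in deficient over wild type (mean of the ratios with doxorubicin and untreated), and the 17 without one had a median of 0.43. Of the 28 that rose, 19 held a CHR, and of the 10 that did not, 2 did, namely Ckap2 and Pds5b. For a CCAAT box the medians were 3.20 with it and 1.91 without it, and 17 of the 28 and 6 of the 10 held one. An E2F site went the other way, with medians of 1.29 with it and 2.58 without it. It was held by 3 of the 28 and 3 of the 10. For 11 of the 38 the RefSeq start lay over 50 bases inside the outermost 5′ end of the gene in GENCODE vM21, among them Pttg1 (270 bases), Cdca3 (629 bases) and Stag1 (45650 bases), so windows of other starts were not read for these. Of the 27 others, 16 held a CHR (59.3%), with a median log2 ratio of 3.35 against 0.45 for the 11 without one. A match is a description of the letters, and binding was not measured.

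**Figure D2:**
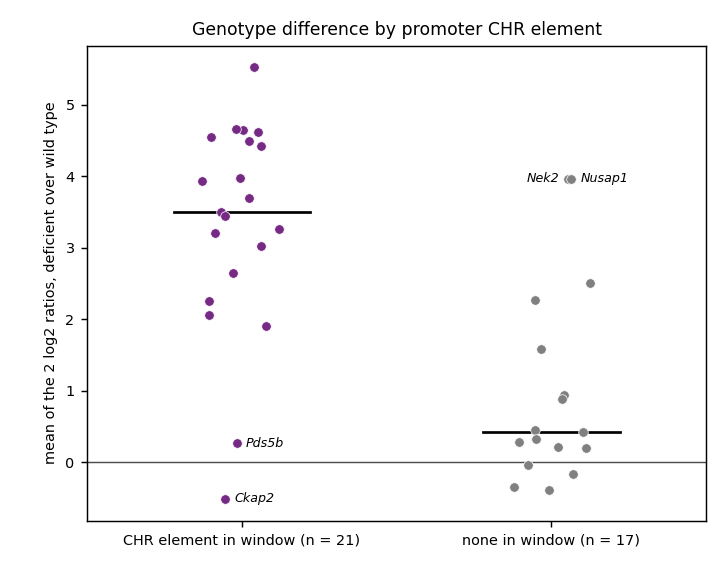
Log2 ratio of deficient over wild type (mean of the ratios with doxorubicin and untreated, CPM + 1) for the 38 genes with a promoter window, split by whether the window holds the CHR element TTTGAA on either strand; points are genes and bars medians. The 21 genes with the element have a median of 3.50 and the 17 without it 0.43, with Nek2 and Nusap1 high although their windows lack it.

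The RNA of condensin was higher in deficient cultures across its subunits, by uneven amounts and with 1 subunit gene standing apart. All 8 of its genes rose in the additive model, and 7 of 8 were at least 2-fold higher in each pair of libraries, with a median log2 ratio of 2.26 with doxorubicin and 1.84 untreated. Of all genes, 12.9% rose, and 10.7% with doxorubicin and 9.79% untreated were at least 2-fold higher. The shared ATPase genes differed by a similar amount: Smc2 (chr4:52439243-52488260) had 2060 counts with doxorubicin and 1223 counts untreated in deficient libraries, against 457 counts with doxorubicin and 392 counts untreated in wild type. Smc4 (chr3:69004738-69034623) had 115 and 88.9 CPM in the deficient libraries with doxorubicin and untreated, against 28.1 and 28.9 CPM in the wild-type libraries with doxorubicin and untreated.

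Condensin I enters the nucleus only after envelope breakdown, and its own subunits showed the wider differences, with 1 exception. Untreated, its subunit Ncaph (log2 ratio 1.87) differed less than the condensin II subunit Ncapg2 (2.69). Ncapg, a HEAT-repeat subunit (chr5:45669919-45700546), had 35.1 CPM with doxorubicin and 28.6 CPM untreated in deficient libraries, against 2.18 CPM with doxorubicin and 1.00 CPM untreated in wild type, a ratio of 16.1-fold (95% interval 12.1 to 21.9) with doxorubicin and 28.5-fold (95% interval 18.2 to 47) untreated. Ncapd2, the other HEAT-repeat subunit (chr6:125168007-125191701), had 83.4 and 62.3 CPM in the deficient libraries with doxorubicin and untreated, against 7.99 and 3.67 CPM in the wild-type libraries with doxorubicin and untreated, and rose by a log2 fold change of 3.71 (SE 0.266, adjusted p 1.44e-09 by edgeR). Ncaph, the kleisin that closes the ring (chr2:127103809-127133954), had 52.8 CPM with doxorubicin and 43 CPM untreated in deficient libraries, against 5.02 CPM with doxorubicin and 11 CPM untreated in wild type. In each of these 3 genes both deficient values lay above both wild-type values.

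Condensin II is nuclear throughout the cycle, and its subunits differed unevenly and, apart from Ncapg2 beside Ncaph untreated, less. Ncapd3 had 29.9 and 28.5 CPM in the deficient libraries with doxorubicin and untreated, against 5.76 and 8.59 CPM in the wild-type libraries with doxorubicin and untreated. Ncapg2 had 30.8 CPM with doxorubicin and 21.4 CPM untreated in deficient libraries, against 7.95 CPM with doxorubicin and 2.46 CPM untreated in wild type. Ncaph2, its kleisin (chr15:89355719-89372826), had 159 and 146 CPM in the deficient libraries with doxorubicin and untreated, against 137 and 89.8 CPM in the wild-type libraries with doxorubicin and untreated, so the deficient library with doxorubicin stood only 1.16-fold (95% interval 1.11 to 1.22) above its wild-type partner. Its rise of 0.45 on the log2 scale (adjusted p 0.0367 by edgeR) was lost in DESeq2 (adjusted p 0.0689), and 22.6% of its 50-base stretches also occur in transcripts of other genes, chiefly Sco2 on the opposite strand, so its counts are uncertain.

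**Figure D3:**
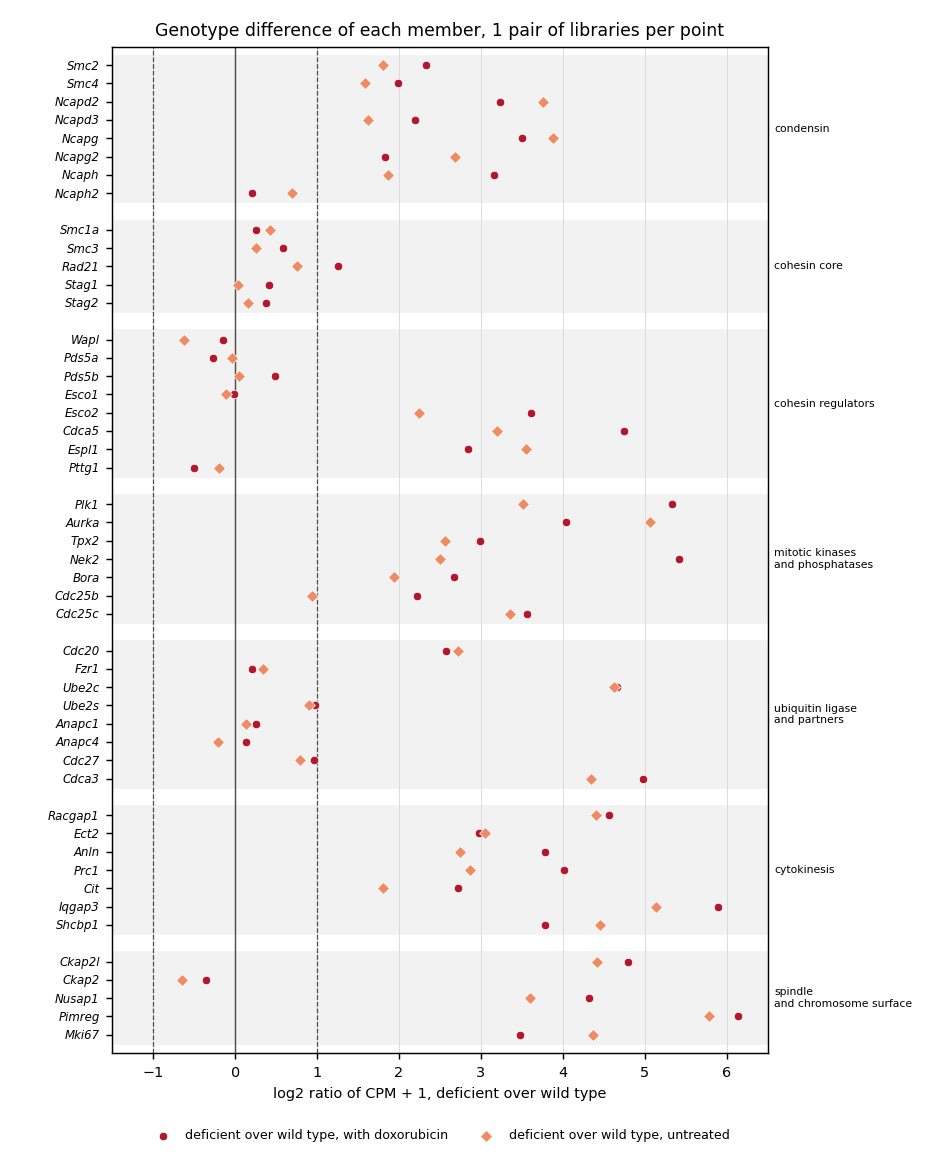
Log2 ratio of deficient over wild type (CPM + 1) for each of the 48 genes, with doxorubicin (red circles) and untreated (orange diamonds), 1 pair of libraries per point; dashed lines mark a 2-fold difference. All cytokinesis genes and most condensin, kinase and spindle genes lie right of the upper line (exceptions are Ncaph2 in both pairs, Cdc25b untreated and Ckap2), while most cohesin genes and the ubiquitin ligase subunits lie between the lines.

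The RNA of cohesin itself differed little between genotypes. Of its 5 core genes, 1 was at least 2-fold higher with doxorubicin and 0 untreated, and the medians were 0.41 and 0.26, beside 10.7% and 9.79% of all genes called higher. Rad21, the kleisin that separase cuts (chr15:51962240-51991747), had 96.8 CPM with doxorubicin and 75.4 CPM untreated in deficient libraries, against 39.9 CPM with doxorubicin and 44.5 CPM untreated in wild type. It was the core gene with the widest difference and rose by 1.02 (SE 0.186, adjusted p 0.000347 by edgeR).

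The SMC pair and the STAG subunits lay closer to equality. Smc3 (chr19:53600398-53645833) had 124 and 114 CPM in the deficient libraries with doxorubicin and untreated, against 82 and 95 CPM in the wild-type libraries with doxorubicin and untreated, with a rise of 0.43 (adjusted p 0.0460 by edgeR) that DESeq2 did not call (adjusted p 0.0980). Smc1a, on the X chromosome (chrX:152016428-152062694), had 123 CPM with doxorubicin and 105 CPM untreated in deficient libraries, against 104 CPM with doxorubicin and 77.9 CPM untreated in wild type and did not pass (adjusted p 0.120 by edgeR). Stag1 and Stag2 are alternative subunits that guide cohesin to its sites, and neither passed: Stag1 had 36.4 and 29.1 CPM in the deficient libraries with doxorubicin and untreated, against 27.2 and 28.5 CPM in the wild-type libraries with doxorubicin and untreated. Stag2, also X-linked, had 46.1 CPM with doxorubicin and 40.5 CPM untreated in deficient libraries, against 35.2 CPM with doxorubicin and 36.1 CPM untreated in wild type. The small positive untreated ratios of both turned negative on TPM (-0.27 for Stag1 and -0.28 for Stag2), where the median of all genes was at -0.20. With doxorubicin, Stag1 was also lower in deficient on TPM (15.6 TPM against 17.3 TPM in wild type).

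Of the 8 regulators of cohesin, Esco2, Cdca5 and Espl1 rose in deficient, where 12.9% of all genes rose. Esco1, Wapl, Pds5a, Pds5b and Pttg1 did not pass the test. Esco2, the acetyltransferase of S phase (chr14:65819038-65833994), had 30.4 CPM with doxorubicin and 21.5 CPM untreated in deficient libraries, against 1.57 CPM with doxorubicin and 3.72 CPM untreated in wild type. Cdca5, which encodes sororin, the protein that locks acetylated cohesin on sister DNA (chr19:6084983-6091777), had 651 counts with doxorubicin and 460 counts untreated in deficient libraries, against 6 counts with doxorubicin and 40 counts untreated in wild type, or 126-fold (95% interval 57.4 to 344) with doxorubicin and 13.3-fold (95% interval 9.62 to 18.9) untreated. Espl1, which encodes separase (chr15:102296266-102324357), had 482 and 255 counts in the deficient libraries with doxorubicin and untreated, against 58 and 7 counts in the wild-type libraries with doxorubicin and untreated. In all 3 the deficient values exceeded both wild-type values.

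Esco1, the related acetyltransferase active outside S phase, had 27.6 and 25.8 CPM in the deficient libraries with doxorubicin and untreated, against 27.8 and 28 CPM in the wild-type libraries with doxorubicin and untreated, a log2 ratio of -0.01 with doxorubicin and -0.11 untreated. Wapl, which releases cohesin from DNA, had 78.9 CPM with doxorubicin and 65.5 CPM untreated in deficient libraries, against 87.7 CPM with doxorubicin and 102 CPM untreated in wild type, and its lower estimate in deficient (-0.39, adjusted p 0.0962 by edgeR) did not pass. The PDS5 proteins bind cohesin together with WAPL or sororin. Pds5a had 41.1 and 46.1 CPM in the deficient libraries with doxorubicin and untreated, against 49.8 and 47.4 CPM in the wild-type libraries with doxorubicin and untreated, and Pds5b had 43.3 CPM with doxorubicin and 32.7 CPM untreated in deficient libraries, against 30.7 CPM with doxorubicin and 31.6 CPM untreated in wild type.

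Pttg1, the gene for securin, which keeps separase inactive until anaphase (chr11:43420250-43426251), was an exception among the genes tied to mitosis. Its level was 138 TPM with doxorubicin and 160 TPM untreated in deficient libraries, against 209 TPM with doxorubicin and 211 TPM untreated in wild type. The counts were 1073 with doxorubicin and 1090 untreated in deficient libraries, against 1772 with doxorubicin and 1456 untreated in wild type, and the additive estimate was -0.36 (SE 0.179, adjusted p 0.159 by edgeR). The RNAs of separase and its inhibitor thus stood in different proportions, and protein was not measured. The ratio of Espl1 to Pttg1 TPM was 0.0387 with doxorubicin and 0.0193 untreated in deficient libraries. In wild type it was 0.00235 with doxorubicin and 0.000326 untreated, resting on 58 and 7 Espl1 counts.

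All 7 kinase and phosphatase genes of mitotic entry rose in deficient, where 12.9% of all genes rose. Their median log2 ratios were 3.56 with doxorubicin and 2.56 untreated. Aurka, the centrosomal Aurora kinase (chr2:172356190-172370535), had 1529 counts with doxorubicin and 792 counts untreated in deficient libraries, against 86 counts with doxorubicin and 8 counts untreated in wild type. Plk1, the polo kinase that drives entry into mitosis (chr7:122159439-122169873), had 1684 and 946 counts in the deficient libraries with doxorubicin and untreated, against 26 and 78 counts in the wild-type libraries with doxorubicin and untreated. Nek2, which separates the centrosomes (chr1:191821444-191833050), had 1047 counts with doxorubicin and 500 counts untreated in deficient libraries, against 6 counts with doxorubicin and 86 counts untreated in wild type. The deficient counts of these 3 kinases were at least 500, while the wild-type counts were at most 86 and differed by treatment in different directions.

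Tpx2 and Bora activate Aurora A, Bora so that it can switch on PLK1. Tpx2 had the highest per-length level (TPM) of the 7 in both wild-type libraries. It had 156 CPM with doxorubicin and 103 CPM untreated in deficient libraries, against 18.7 CPM with doxorubicin and 16.7 CPM untreated in wild type, and it rose by 2.84 (SE 0.186, adjusted p 3.97e-10 by edgeR). Bora had 23.2 and 16.2 CPM in the deficient libraries with doxorubicin and untreated, against 2.80 and 3.46 CPM in the wild-type libraries with doxorubicin and untreated. The CDC25 phosphatases remove inhibitory phosphates from CDK1, and Cdc25b and Cdc25c rose, unequally, while Cdc25a, from the lists of other genes below, did not pass (0.27, adjusted p 0.706 by edgeR). The log2 ratios of Cdc25a had opposite signs in the pairs, at 0.92 with doxorubicin and -0.42 untreated. Cdc25b had 18.6 CPM with doxorubicin and 12.5 CPM untreated in deficient libraries, against 3.19 CPM with doxorubicin and 6.08 CPM untreated in wild type, the smallest difference of this role, at a log2 ratio of 2.22 with doxorubicin and 0.94 untreated. Cdc25c had 296 and 167 counts in the deficient libraries with doxorubicin and untreated, against 8 and 1 counts in the wild-type libraries with doxorubicin and untreated, so its untreated ratio of 193-fold (95% interval 34.2 to 7677) is bounded mainly by the single wild-type count.

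The 3 core subunits of the anaphase-promoting complex among the 48 were not 2-fold apart in either pair: Anapc4, a scaffold subunit, had 76.4 and 77.1 CPM in the deficient libraries with doxorubicin and untreated, against 70 and 89.1 CPM in the wild-type libraries with doxorubicin and untreated. Anapc1 had log2 ratios of 0.26 with doxorubicin and 0.13 untreated, the second turning to -0.29 on TPM. Cdc27, a subunit that binds the coactivators, had ratios just short of 2-fold (0.96 with doxorubicin and 0.79 untreated) and was the 1 of these 3 that rose (0.89, SE 0.199, adjusted p 0.00226 by edgeR).

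Among the enzymes and coactivators that act with this complex, Ube2c, Cdc20 and Cdca3 were at least 2-fold higher in both pairs, and Ube2s and Fzr1 were not. Ube2c, which starts ubiquitin chains on its substrates (chr2:164769898-164778822, the promoter shown above), had 154 CPM with doxorubicin and 110 CPM untreated in deficient libraries, against 5.11 CPM with doxorubicin and 3.46 CPM untreated in wild type, a ratio of 30.1-fold (95% interval 25 to 36.5) with doxorubicin and 31.7-fold (95% interval 24.9 to 40.9) untreated. It had the smallest adjusted p of the 48 (log2 fold change 4.94, SE 0.213, adjusted p 1.25e-12 by edgeR). Ube2s, which extends the chains, had 132 and 103 CPM in the deficient libraries with doxorubicin and untreated, against 67 and 54.4 CPM in the wild-type libraries with doxorubicin and untreated, and its ratios of 0.97 and 0.90 on the log2 scale fell just short of 2-fold although it rose in the model (adjusted p 0.000132 by edgeR). Ube2s shares exon sequence with Rpl28 on the opposite strand, and the library kit does not mark strand. Rpl28 had 1260 and 1152 counts in the deficient libraries with doxorubicin and untreated, against 882 and 582 in wild type. Its part in the Ube2s counts was not tested.

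Cdc20, the coactivator of anaphase onset (chr4:118432901-118437352), had 145 CPM with doxorubicin and 87.7 CPM untreated in deficient libraries, against 23.5 CPM with doxorubicin and 12.5 CPM untreated in wild type. Fzr1, the gene of the G1 coactivator CDH1 (chr10:81366222-81378516), had 93.2 and 76.1 CPM in the deficient libraries with doxorubicin and untreated, against 80.7 and 59.7 CPM in the wild-type libraries with doxorubicin and untreated and did not pass (adjusted p 0.252 by edgeR). Both genes overlap another gene on the opposite strand, Elovl1 and Mfsd12, whose counts varied by less than 2-fold between the libraries. Cdca3, which takes part in the destruction of the mitotic inhibitor WEE1 (chr6:124829547-124833701), had 103 CPM with doxorubicin and 78.5 CPM untreated in deficient libraries, against 2.31 CPM with doxorubicin and 2.91 CPM untreated in wild type. Its log2 ratios were 4.98 with doxorubicin and 4.35 untreated, beside 4.66 and 4.63 for Ube2c, so each of them was the widest of this role in 1 pair.

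All 7 cytokinesis genes rose and were at least 2-fold higher in both pairs, with medians of 3.78 with doxorubicin and 3.05 untreated. Of all genes, 12.9% rose, and 10.7% with doxorubicin and 9.79% untreated were at least 2-fold higher. Racgap1, the GTPase-activating member of the centralspindlin complex at the midzone (chr15:99620496-99651656), had 149 and 97.9 CPM in the deficient libraries with doxorubicin and untreated, against 5.28 and 3.67 CPM in the wild-type libraries with doxorubicin and untreated, and rose by 4.77 (SE 0.216, adjusted p 2.11e-12 by edgeR). Ect2, the exchange factor that centralspindlin recruits to activate RhoA, had 61.8 CPM with doxorubicin and 40.3 CPM untreated in deficient libraries, against 6.99 CPM with doxorubicin and 3.97 CPM untreated in wild type. Anln, which encodes anillin, the scaffold of the contractile ring, had 87.6 and 55.9 CPM in the deficient libraries with doxorubicin and untreated, against 5.46 and 7.53 CPM in the wild-type libraries with doxorubicin and untreated.

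Prc1, which bundles the antiparallel microtubules of the midzone (chr7:80294450-80316259), had 181 CPM with doxorubicin and 144 CPM untreated in deficient libraries, against 10.3 CPM with doxorubicin and 18.7 CPM untreated in wild type and had the highest per-length level (TPM) of this role in every library. Cit, the citron kinase of the midbody, had 35.7 and 27.1 CPM in the deficient libraries with doxorubicin and untreated, against 4.59 and 6.98 CPM in the wild-type libraries with doxorubicin and untreated, the smallest difference of this role. In each of the 7 genes both deficient values lay above both wild-type values. Shcbp1, a partner of centralspindlin, had 998 counts with doxorubicin and 565 counts untreated in deficient libraries, against 63 counts with doxorubicin and 11 counts untreated in wild type. Iqgap3, a scaffold of the cell cortex (chr3:88081971-88121048), had 1260 and 590 counts in the deficient libraries with doxorubicin and untreated, against 2 and 0 counts in the wild-type libraries with doxorubicin and untreated. Against the 3 counts that a count of 0 allows, Iqgap3 was at least 228-fold higher in untreated deficient than in untreated wild type.

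Of the 5 genes of the spindle and the chromosome surface, 4 rose, where 12.9% of all genes rose. Pimreg, which binds the clathrin assembly protein PICALM (chr11:72042032-72047370), had 1561 counts with doxorubicin and 931 counts untreated in deficient libraries, against 3 counts with doxorubicin and 0 counts untreated in wild type, at least 359-fold higher in the untreated pair. Nusap1, which binds spindle microtubules near chromatin, had 56.3 and 38.6 CPM in the deficient libraries with doxorubicin and untreated, against 1.88 and 2.26 CPM in the wild-type libraries with doxorubicin and untreated. Its exons overlap those of Oip5 on the opposite strand, which had 375 and 165 counts in deficient with doxorubicin and untreated, against 39 and 21 in wild type. Mki67, the proliferation marker Ki-67 that coats mitotic chromosomes (chr7:135689784-135716361), had 145 CPM with doxorubicin and 101 CPM untreated in deficient libraries, against 12.1 CPM with doxorubicin and 3.92 CPM untreated in wild type. In all 3 both wild-type values lay below both deficient values.

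Ckap2 and Ckap2l are related spindle proteins, and their genes differed in opposite directions. Ckap2l (chr2:129268210-129297212) had 103 and 74 CPM in the deficient libraries with doxorubicin and untreated, against 2.75 and 2.51 CPM in the wild-type libraries with doxorubicin and untreated, and rose by 5.06 (SE 0.258, adjusted p 9.75e-12 by edgeR). Ckap2 (chr8:22168160-22185819) had 86.9 CPM with doxorubicin and 60.1 CPM untreated in deficient libraries, against 112 CPM with doxorubicin and 94.9 CPM untreated in wild type, and had a log2 fold change of -0.51 (SE 0.159, adjusted p 0.0231 by edgeR). This fall was not called by DESeq2 (adjusted p 0.0559), without a minimum on the mean (0.0620) or without treatment in the model (0.119), and its estimate was negative under each of these. With a library left out as well as treatment, the estimate was -0.79 without the deficient library with doxorubicin (0.100), -0.27 without the untreated deficient library (0.583) and -0.36 without the wild-type library with doxorubicin (0.232), and none of these 3 passed.

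**Figure D4:**
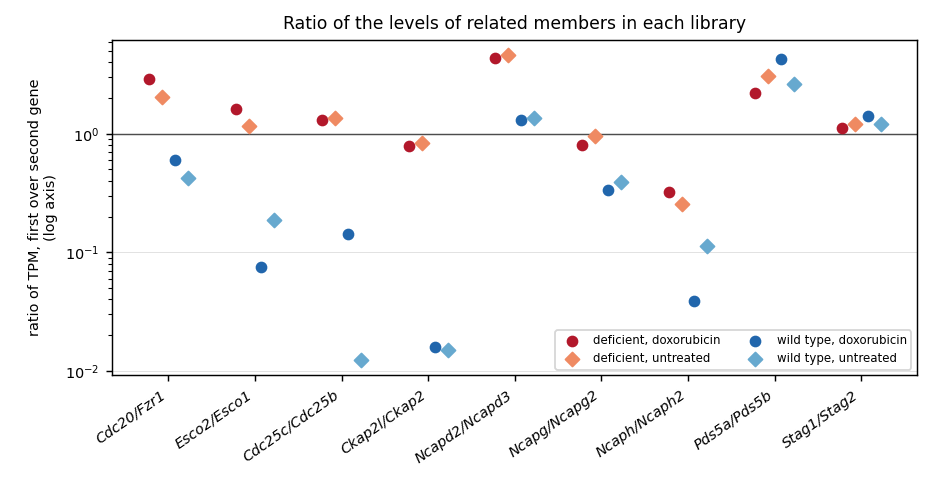
Ratio of the TPM levels of related genes within each library, first gene over second, on a log axis; points are single libraries. The ratios of Cdc20 to Fzr1, Esco2 to Esco1 and Cdc25c to Cdc25b lie above 1 in both deficient libraries and below 1 in both wild-type libraries, and the ratios of Stag1 to Stag2 lie between 1.12 and 1.42 in all 4.

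Because both genes of a pair are read in the same library, ratios of TPM within a library show how the balance between related genes differed. Cdc20 stood at 2.91 times Fzr1 with doxorubicin and 2.05 times untreated in deficient libraries, against 0.600 with doxorubicin and 0.426 untreated in wild type. The ratio of Esco2 to Esco1 was 1.61 with doxorubicin and 1.16 untreated in deficient, against 0.0746 and 0.189 in wild type with doxorubicin and untreated. Cdc25c stood at 1.30 times Cdc25b with doxorubicin and 1.35 times untreated in deficient, against 0.143 with doxorubicin and 0.0123 untreated in wild type. In these 3 pairs the more abundant gene differed between the genotypes.

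In condensin, the TPM ratio of the form I to the form II gene was higher in deficient than in wild-type libraries for each matched subunit. On TPM, Ncapg and Ncaph nevertheless stayed below their form II partners in every library. Ncapd2 was at 4.39 times Ncapd3 with doxorubicin and 4.64 times untreated in deficient, against 1.31 with doxorubicin and 1.36 untreated in wild type. By counts this ratio was 2.79 with doxorubicin and 2.18 untreated in deficient, against 1.39 and 0.427 in wild type. For Ncapg over Ncapg2 the ratio was 0.799 with doxorubicin and 0.955 untreated in deficient, against 0.334 with doxorubicin and 0.394 untreated in wild type. Ncaph over Ncaph2 stood at 0.320 with doxorubicin and 0.255 untreated in deficient, against 0.0388 with doxorubicin and 0.114 untreated in wild type. Of the pairs that serve the whole cycle, Stag1 over Stag2 was at 1.12 with doxorubicin and 1.22 untreated in deficient, against 1.42 with doxorubicin and 1.21 untreated in wild type. These ratios were not tested.

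The response to doxorubicin was small and nearly uniform in the deficient cultures. Of the 48 genes, 45 were above 0 in doxorubicin over untreated, with a median log2 ratio of 0.41 (SD 0.24 over genes, range -0.22 to 0.88), beside an all-gene median of 0.03. None reached 2-fold in either direction, where 1.58% of all genes were at least 2-fold higher and 1.93% lower. Iqgap3 had the highest ratio (0.88), followed by Nek2 (0.84) and Aurka (0.74), and the 3 below 0 were Pttg1 (-0.22), Pds5a (-0.16) and Anapc4 (-0.01). The medians by role ran from 0.23 for cohesin core to 0.61 for cytokinesis. The libraries compared also differ in sex, as the Xist and Y-linked counts above show.

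The wild-type pair scattered around 0 instead. There 24 of 48 were above 0 and 24 below, with a median of 0.01 (SD 0.74 over genes, range -2.08 to 1.76). By size, 5 were at least 2-fold higher with doxorubicin (Aurka, Mki67, Espl1, Ncapg2 and Shcbp1), where 4.08% of all genes were, and 4 were lower (Nek2, Cdca5, Plk1 and Ncaph), where 5.45% were. Among the 29 genes whose larger wild-type count was under 500 the SD over genes was 0.93, and among the 19 with 500 or more it was 0.31. All 9 genes past 2-fold had under 500 counts in both wild-type libraries, and with 5 CPM added in place of 1 CPM none of the 48 reached 2-fold. On TPM 1 was at least 2-fold higher.

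**Figure D5:**
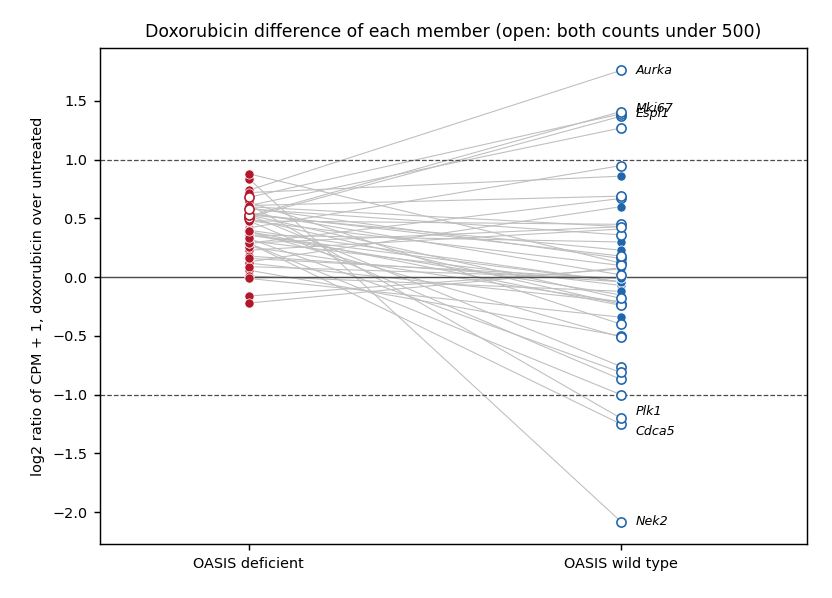
Log2 ratio of doxorubicin over untreated (CPM + 1) for each of the 48 genes in the deficient pair and in the wild-type pair, joined by a line per gene; open points have under 500 counts in both libraries of the pair and dashed lines mark 2-fold. The deficient ratios lie between -0.22 and 0.88 and the wild-type ratios between -2.08 and 1.76.

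Counts show what lies behind the widest wild-type ratios. Nek2 had 6 counts with doxorubicin and 86 untreated in wild type, a ratio of 0.0607-fold (95% interval 0.0217 to 0.138). Aurka had 86 with doxorubicin and 8 untreated, a ratio of 9.35-fold (95% interval 4.54 to 22.4). The ratios of these kinases, which both peak in late G2 and mitosis of dividing cells, had opposite signs between these single libraries. Espl1 had 58 with doxorubicin and 7 untreated, while Cdca5 had 6 with doxorubicin and 40 untreated. Intervals that cover at most counting error held a ratio of 1 for 17 of the 48 in wild type and for 4 of the 48 in deficient. Ncapd2 had opposite signs on the 2 deposited scales in wild type, with a log2 ratio of 0.95 in CPM and -0.59 in TPM.

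The response in deficient minus the response in wild type was at least 1 for 8 genes and at most -1 for 1, where 7.66% and 6.05% of all genes were, and its median over the 48 was 0.33. The 8 were Nek2 (2.92), Plk1 (1.83), Cdca5 (1.54), Esco2 (1.35), Ncaph (1.29), Cdc25b (1.29), Prc1 (1.14) and Anln (1.04), and the 1 was Aurka (-1.03). Esco2 had 601 counts with doxorubicin and 370 untreated in deficient, against 36 with doxorubicin and 74 untreated in wild type. With 4 libraries in 4 groups no degree of freedom is left to test an interaction, so none of these differences was tested. With 5 CPM added in place of 1 CPM, 2 genes stayed at 1 or above and 0 at -1 or below.

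In the additive model, doxorubicin changed 0 of the 48 at an adjusted p of at most 0.05 by edgeR, where 0.0256% of all genes rose and 0.192% fell. At an unadjusted p under 0.05 there were 17 of the 48, all with higher estimates, beside 887 of all 15596 genes, and DESeq2 also called 0 (11 at an unadjusted p under 0.05, beside 557 of all genes). The nearest were Cdc20 (log2 fold change 0.81, adjusted p 0.0799), Mki67 (0.97, 0.114) and Aurka (1.44, 0.192). These 3 passed with DESeq2's size factors in edgeR (adjusted p 0.00664 to 0.0134) and with a minimum mean of 5 CPM (0.000427 to 0.00397).

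Other genes of the same machinery were taken from 4 lists of 56 genes, which were chosen with earlier results of these data known. Of the 55 with a mean of at least 1 CPM, 20 were at least 2-fold higher in deficient over wild type with doxorubicin and 18 untreated. Of all genes 10.7% and 9.79% were. In either pair 0 of the 55 were at least 2-fold lower, where 9.55% of all genes were with doxorubicin and 10.2% untreated. In the additive model 26 rose and 2 fell, where 12.9% of all genes rose and 10.9% fell. The 2 were Myh9 and Pdcd6ip, genes of non-muscle myosin and of abscission, named after their values were seen. Aurkb, the Aurora kinase of the passenger complex at centromeres and midzone, had 2526 counts with doxorubicin and 1139 counts untreated in deficient libraries, against 0 counts with doxorubicin and 0 counts untreated in wild type, at least 975-fold higher with doxorubicin and at least 439-fold higher untreated. Its partner Birc5, which encodes survivin, had 108 and 87.4 CPM in the deficient libraries with doxorubicin and untreated, against 4.06 and 6.98 CPM in the wild-type libraries with doxorubicin and untreated. Kif20a, a kinesin of the midzone, had 93.5 CPM with doxorubicin and 68.5 CPM untreated in deficient libraries, against 1.79 CPM with doxorubicin and 3.36 CPM untreated in wild type, and Kif4, which works with Prc1 there, had 45.5 and 23.7 CPM in the deficient libraries with doxorubicin and untreated, against 0.830 and 0.954 CPM in the wild-type libraries with doxorubicin and untreated.

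Where 12.9% of all genes rose in the additive model, 3 of 8 other cohesin genes with a mean of at least 1 CPM did. Their widest difference was that of Sgo2a, a shugoshin that protects cohesin at centromeres. It had 46.5 CPM with doxorubicin and 34.4 CPM untreated in deficient libraries, against 1.79 CPM with doxorubicin and 2.11 CPM untreated in wild type. Sgo1, the other shugoshin, had 15.6 and 13 CPM in the deficient libraries with doxorubicin and untreated, against 2.14 and 3.56 CPM in the wild-type libraries with doxorubicin and untreated. Of 13 further genes of the anaphase-promoting complex, 5 rose. They were Fbxo5 and the subunit genes Anapc11, Anapc13, Anapc15 and Cdc23, the subunits with log2 fold changes of 0.51 to 1.04 (adjusted p 0.00847 to 0.0349 by edgeR; named after their values were seen). Fbxo5, which encodes the inhibitor EMI1, had the widest difference, with 31.3 CPM with doxorubicin and 25.6 CPM untreated in deficient libraries, against 1.53 CPM with doxorubicin and 0.402 CPM untreated in wild type. Next came Anapc15, with log2 ratios of 0.96 with doxorubicin and 1.04 untreated. Among 14 entry and exit kinases and phosphatases 7 rose, with Cdk1 at 212 and 160 CPM in the deficient libraries with doxorubicin and untreated, against 16.8 and 13.2 CPM in the wild-type libraries with doxorubicin and untreated, and Ccnb1, the gene of its partner cyclin B1, at 158 CPM with doxorubicin and 102 CPM untreated in deficient libraries, against 9.39 CPM with doxorubicin and 7.83 CPM untreated in wild type.

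Markers of other cells also differed with the genotype label, and their part in these results was not tested. The 10 oligodendrocyte lineage markers summed to 1069 CPM with doxorubicin and 1073 CPM untreated in deficient libraries, against 346 CPM with doxorubicin and 473 CPM untreated in wild type, with 8 of 10 at least 2-fold higher in each pair. In wild type, Sox10, Mog and Mobp were at 0 counts with doxorubicin and Mog untreated. Astrocyte markers summed to 9804 CPM with doxorubicin and 11134 CPM untreated in deficient, against 3801 CPM with doxorubicin and 3925 CPM untreated in wild type. Gfap alone had 5168 and 6589 CPM of this in deficient with doxorubicin and untreated, against 1120 and 1140 CPM in wild type. Of the 10 astrocyte markers, 3 were at least 2-fold higher with doxorubicin and 2 untreated, where 10.7% and 9.79% of all genes were. Their median log2 ratios were 0.77 with doxorubicin and 0.69 untreated. Microglia markers summed to 582 CPM with doxorubicin and 892 CPM untreated in deficient, against 676 CPM with doxorubicin and 942 CPM untreated in wild type. Neuron markers summed to 464 CPM with doxorubicin and 429 CPM untreated in deficient, against 221 CPM with doxorubicin and 265 CPM untreated in wild type. The sums were 292 and 337 CPM in deficient with doxorubicin and untreated, against 218 and 383 CPM in wild type with doxorubicin and untreated, for fibroblast and meningeal markers. For ependymal markers they were 108 CPM in both deficient libraries, against 148 CPM with doxorubicin and 105 CPM untreated in wild type, and endothelial markers were at most 11.6 CPM in any library.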

How the data were processed

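Libraries of cultured astrocytes, 4 in all, were prepared with the SMART-Seq v4 kit per the labels' protocols, and this kit keeps no strand. Per the file headers, the authors deposited for every gene a TPM value and an estimated count from their own read assignment. The submitters' processing notes name DRAGEN and GRCm38; the annotation release is not given in the sources used here. Symbols came from GENCODE vM21 for 55227 of 55487 identifiers.

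The deposited counts were rounded and scaled to CPM with TMM factors (0.981 to 1.02, edgeR 4.0.16 in R 4.3.3). Log2 ratios add 1 CPM, which understates the change of low genes. The model of genotype and treatment label, labels being taken from each sample's characteristics, was fitted to all 15596 genes with a mean of at least 1 CPM (common dispersion 0.0859, 19.1 prior degrees of freedom), and the code was tested on simulated data. The deposited TPM served to compare genes within a library and as an alternative scale. Alternatives were DESeq2 1.42.0, limma-voom (limma 3.58.1), other size factors, pseudocounts of 0.5 and 5 CPM, a minimum of 5 CPM or none, TPM, a 1.5-fold threshold, a model without the other factor, and that model with each library left out; whether the whole counting interval lay beyond 2-fold was added after seeing the data. All members were counted; those named with values in every library were, in each role, the 3 with the largest and the 1 with the smallest mean genotype ratio, members at 0 counts, members whose responses differed by at least 1 and both genes of related pairs. The members and lists were chosen with earlier results of these data known.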

Additional observations from a re-analysis of the deposited data

Results flagged for a closer look

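For 8 genes the single deficient ratio of doxorubicin over untreated and the single wild-type ratio had opposite signs, at least 1 apart on the log2 scale, and the difference was not tested for any of them. The response in deficient minus that in wild type was 2.92 for Nek2, 1.83 for Plk1, 1.54 for Cdca5, 1.35 for Esco2, 1.29 for Ncaph, 1.29 for Cdc25b, 1.14 for Prc1 and 1.04 for Anln. All 8 were above 0 in deficient, as 45 of the 48 were, and below 0 in wild type, as 24 of the 48 were. A difference of at least 1, whatever the signs, was found in 7.66% of all genes. Each pair has 1 library per treatment and the treatments also differ in the sex of the culture, so treatment, sex and library cannot be told apart.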

How the results depend on the processing

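No called value of these 48 genes changed sign under any alternative, while several uncalled ratios did on TPM. Among them, the untreated genotype ratios of Stag1, Stag2, Pds5b and Anapc1 turned negative. So did the genotype ratio of Stag1 with doxorubicin and the wild-type response of Ncapd2. The counts of genes at least 2-fold higher in deficient over wild type stayed within 1.5 times their value under every setting run, whether with doxorubicin or untreated. With 0.5 CPM added, 3 genes had a difference of responses of -1 or lower. With 5 CPM added, 0 genes were higher and 0 lower in the wild-type response, and the difference held 2 higher and 0 lower. On TPM, where the median of all genes moved to -0.20 in the untreated genotype pair, 1 gene was lower there (Ckap2), 1 was higher in the wild-type response and 0 were lower in the difference. At 1.5-fold, 2 genes were lower in the untreated genotype pair, 11 were higher in the deficient response, 10 higher and 7 lower in the wild-type response, and 13 higher and 5 lower in the difference. In the additive test of genotype, the genes called lower were 2 with a minimum of 5 CPM (Ckap2 and Wapl) and 0 with no minimum, without treatment in the model and in DESeq2, and leaving out a library gave 25 to 36 higher and 0 to 1 lower. Treatment also left the model in these fits of 3 libraries, where 1 genotype is a lone library, and its removal alone gave 34 higher. In the additive test of doxorubicin, 3 genes were higher with DESeq2's size factors and 3 with a minimum of 5 CPM (Aurka, Cdc20 and Mki67 in both). The cause of these shifts was not tested. No paired analysis was possible because each group holds 1 library. Wild-type counts under 100 limit the ratios of 16 genes with doxorubicin and 21 untreated.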
